A study of Mus musculus with 6 samples.

Results

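Leukotrienes and related eicosanoids are lipid signals made from arachidonic acid. Here 9 mouse genes of this family were followed in F4/80+ cells sorted from liver tumours: the leukotriene enzymes Alox5, Alox5ap, Lta4h and Ltc4s, the leukotriene receptors Ltb4r1 and Cysltr1, the lipoxygenase Alox15, and the prostanoid synthases Tbxas1 and Hpgds. The genes were chosen by symbol, and all 9 were found among the 55401 rows of the gene table and passed the low-count filter, which kept 18277 genes.

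Hepa 1-6 cells, a mouse hepatoma line, were injected into the right liver lobe of mice, and F4/80+ cells, which the labels call macrophages, were taken from the tumours 14 days later. The control group has 3 libraries, labelled WT Control, and the other 3 come from tumours grown from Hepa 1-6 cells in which Sms, the gene of spermine synthase, was overexpressed by lentivirus (Sms_OE). It is thus the injected cells, and not the sorted ones, that carry the Sms vector, and the labels name no further treatment. The sources used here do not give the strain, age or number of mice, nor whether the overexpressing cells were a single clone. They name replicates without tying each to a separate animal, so every p-value rests on a spread between libraries that may be technical.

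In leukocytes, 5-lipoxygenase (Alox5), helped by its membrane partner FLAP (Alox5ap), turns arachidonic acid into leukotriene A4. Leukotriene A4 hydrolase (Lta4h) then gives leukotriene B4, which attracts neutrophils through the receptor BLT1 (Ltb4r1), while leukotriene C4 synthase (Ltc4s) gives the cysteinyl leukotrienes, which act through Cysltr1 among other receptors. Alox15 encodes a separate lipoxygenase found in eosinophils and some resident macrophages, Tbxas1 encodes thromboxane synthase, and Hpgds makes prostaglandin D2 in haematopoietic cells. F4/80 is found on eosinophils as well as on macrophages.

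Estimated counts totalled 49833764 to 58154006 per library. Levels below are in CPM, the field's usual scaling of a gene's count by the size of its library, here with TMM factors. Macrophage markers were present in every library: the 11 genes on the list summed to 7108 to 7280 CPM in the controls and 7201 to 8406 CPM in Sms_OE, and Adgre1, the gene of F4/80 itself, ranged from 334 to 660 CPM. Within that list 2 genes were higher and 4 lower in Sms_OE, among them Aif1 at 0.53-fold. Kupffer cells are macrophages resident in the liver, and all 6 of their markers rose, with a summed level of 134 to 153 CPM in the controls and 331 to 446 CPM in Sms_OE and a median log2 fold change of 1.37. The part of this shift in the results below was not tested. The sorted cells also held RNA of granulocytes. The 10 neutrophil markers summed to 5473 to 8031 CPM in the controls and 4430 to 6352 CPM in Sms_OE, and the 6 eosinophil markers to 367 to 710 and 455 to 703 CPM. None of the 6 eosinophil markers and none of the 10 neutrophil markers passed edgeR's test at an adjusted p under 0.05 (0 and 2 at an unadjusted p under 0.05, 0 and 1 by DESeq2, 0 and 1 by limma-voom). Sms_OE replicate 2 and Sms_OE replicate 3 stood apart by haemoglobin and other erythroid RNA, at up to 5048 CPM against 43.2 to 216 CPM in the other 4 libraries. The 10 hepatocyte markers summed to 739 to 926 CPM in the controls and 386 to 591 CPM in Sms_OE, and 9 of them were lower. In bulk RNA of sorted cells, fewer cells of a type and less RNA per cell cannot be told apart.

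The levels of the 9 genes per kb of their longest annotated transcript spanned a wide range. Alox5ap was highest, at 389 CPM per kb over the 6 libraries (307 to 483), followed by Alox15 at 314 (201 to 455), and these ranges overlapped. Alox5 at 63.7 CPM per kb (48.5 to 73.4), Ltb4r1 at 48.3 (41.5 to 53.6) and Lta4h at 41.9 (33.7 to 46.7) formed a middle group in which each range overlapped the next. Tbxas1 lay below them at 29.6 CPM per kb (27.1 to 31.7), a range that overlapped no other gene's. The lowest levels per kb were those of Ltc4s at 9.48 (6.72 to 16.7), Cysltr1 at 3.52 (2.31 to 4.79) and Hpgds at 1.5 (0.964 to 2.53), of which the ranges of Cysltr1 and Hpgds overlapped. Both genes of leukotriene A4 formation and the hydrolase of the B4 branch were thus well above the synthase of the cysteinyl branch on this scale.

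**Figure D1:**
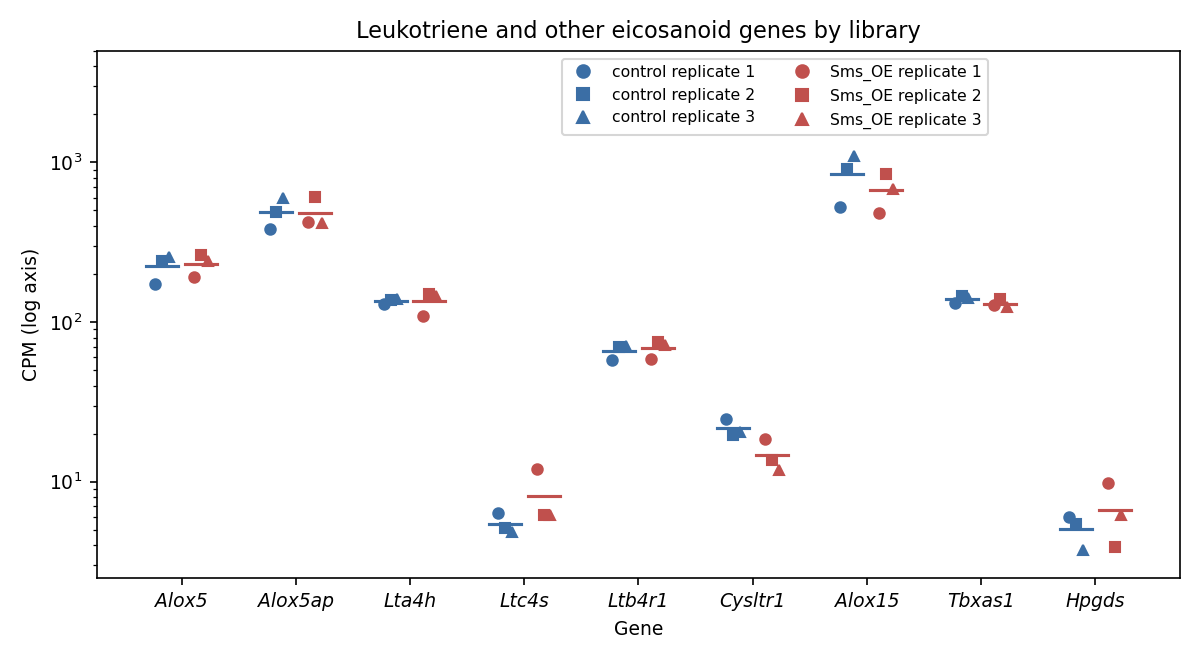
CPM (log axis) of the 9 genes in each of the 6 libraries, controls in blue and Sms_OE in red, with the replicate number as the symbol and the group mean as a bar. The groups overlap for every gene except Cysltr1, whose Sms_OE values of 11.9 to 18.6 CPM lie below the control values of 19.5 to 24.6 CPM.

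Promoter windows from RefSeq (GRCm38.p6), from 250 bases before to 50 after an annotated start, were matched by symbol for 6 of the 9 genes (Alox5, Lta4h, Ltc4s, Ltb4r1, Tbxas1 and Hpgds). Of these, 3 are shown because they stand for the shared entry step (Alox5, chr6:116461129-116461428, minus strand), the cysteinyl branch with its low RNA level (Ltc4s, chr11:50238483-50238782, minus strand) and the B4 receptor (Ltb4r1, chr14:55765712-55766011, plus strand). Capitals mark the GC box GGGCGG and the PU.1-type motif GAGGAAGT, each searched on both strands (CCGCCC and ACTTCCTC are their forms on the other strand).
Alox5: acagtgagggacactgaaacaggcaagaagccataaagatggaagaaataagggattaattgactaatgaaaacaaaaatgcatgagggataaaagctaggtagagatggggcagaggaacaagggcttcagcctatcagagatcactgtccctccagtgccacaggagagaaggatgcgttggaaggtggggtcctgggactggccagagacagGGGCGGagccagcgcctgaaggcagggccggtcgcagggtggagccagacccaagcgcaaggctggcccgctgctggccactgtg
Ltc4s: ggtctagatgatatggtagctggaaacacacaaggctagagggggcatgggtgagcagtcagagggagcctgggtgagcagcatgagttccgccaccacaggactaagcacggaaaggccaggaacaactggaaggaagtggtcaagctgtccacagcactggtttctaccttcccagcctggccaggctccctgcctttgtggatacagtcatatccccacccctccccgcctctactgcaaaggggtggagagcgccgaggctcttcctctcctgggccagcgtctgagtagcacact
Ltb4r1: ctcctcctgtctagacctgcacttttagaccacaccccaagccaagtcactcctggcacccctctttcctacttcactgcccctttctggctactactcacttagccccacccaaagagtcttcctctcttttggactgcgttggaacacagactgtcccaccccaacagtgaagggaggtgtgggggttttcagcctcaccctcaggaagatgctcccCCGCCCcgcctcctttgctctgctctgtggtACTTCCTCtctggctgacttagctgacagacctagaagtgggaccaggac
The Alox5 window held 1 GC box and no PU.1-type motif, the Ltb4r1 window 1 of each, and the Ltc4s window neither. Among all 32851 promoter windows of this length, 35.7% held the GC box and 3.20% the PU.1-type motif, and the Hpgds window held 1 of the latter. A match is a string of letters and not evidence of binding.

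Of the 9 genes, 1 was lower and none was higher in Sms_OE by edgeR's quasi-likelihood test at an adjusted p under 0.05. Over all 18277 tested genes 26.9% passed, 12.5% higher and 14.3% lower, so the 9 genes, at 11.1% called, did not exceed the background. With library size alone as the scaling the split over all genes was 2521 higher and 1788 lower, against 2293 and 2615. The median log2 fold change of the 9 genes was -0.01, and that of all tested genes was -0.00060. The groups did not overlap in CPM for 1 of the 9 genes, against 44.1% of all tested genes. The count of 1 was 0 without control replicate 1, 2 or 3 and without Sms_OE replicate 2 or 3, with 1 to 3 genes at an unadjusted p under 0.05 in those fits. Without both haemoglobin-rich libraries, which leaves 1 Sms_OE library that is assumed to vary like the controls, the count was again 1, but the gene was Ltc4s, which was higher.

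**Figure D2:**
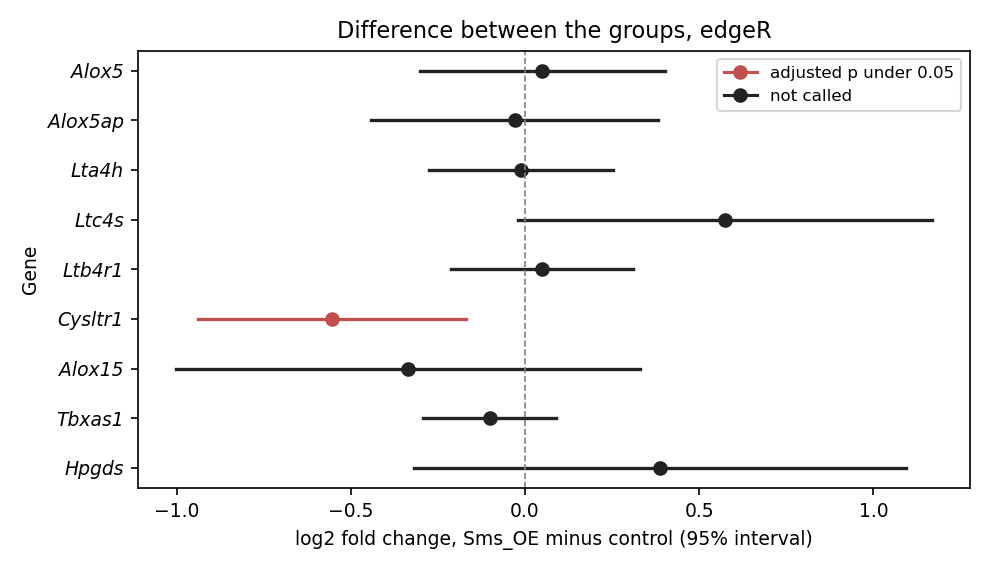
Log2 fold change (Sms_OE minus control) of the 9 genes with its 95% interval from the edgeR fit (n = 3 against 3). Only the interval of Cysltr1, from -0.94 to -0.17, excludes 0, and those of Lta4h, Ltb4r1 and Tbxas1 are the narrowest.

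The entry enzymes of leukotriene synthesis did not pass the test. Alox5 (ENSMUSG00000025701, chromosome 6, 116410077 to 116461178 in GRCm38) stood at 173, 242 and 256 CPM in control replicates 1, 2 and 3, and at 192, 263 and 241 CPM in the Sms_OE replicates. The groups overlapped almost fully, and the lowest library of each group was its replicate 1. Its log2 fold change was 0.05 ± 0.16 (SE, adjusted p = 0.851), with a 95% interval of 0.81-fold to 1.32-fold. Alox5ap (ENSMUSG00000060063, chromosome 5, 149264767 to 149288153), the FLAP protein that presents arachidonic acid to 5-lipoxygenase, gave 384, 490 and 601 CPM in the controls and 425, 605 and 416 CPM in Sms_OE. The highest value of each group was nearly the same, and the log2 fold change was -0.03 ± 0.18 (SE, adjusted p = 0.927, interval 0.74-fold to 1.30-fold). With offsets for transcript length and GC content it was 0.29 (adjusted p = 0.216, the lowest of 21 alternative fits that reached 0.999).

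The enzymes that divide leukotriene A4 between its branches differed in how far their libraries scattered. Lta4h (ENSMUSG00000015889, chromosome 10, 93453411 to 93484875) lay at 130, 137 and 140 CPM in the controls and at 109, 151 and 145 CPM in Sms_OE, with a log2 fold change of -0.01 ± 0.12 (SE, adjusted p = 0.960). Its interval, 0.83-fold to 1.19-fold, was narrow, but without both haemoglobin-rich libraries, which leaves Sms_OE replicate 1 alone, the log2 fold change was -0.33. Ltc4s (ENSMUSG00000020377, chromosome 11, 50236461 to 50238616) gave 6.39, 5.16 and 4.81 CPM in the controls and 11.9, 6.22 and 6.22 CPM in Sms_OE. Sms_OE replicate 1 stood well above every other library, and the remaining Sms_OE values lay between the 2 highest controls. The log2 fold change was 0.57 ± 0.27 (SE, adjusted p = 0.143, interval 0.99-fold to 2.25-fold). It was 0.18 without Sms_OE replicate 1 (adjusted p = 0.577), and 1.12 without both haemoglobin-rich libraries, where that library alone stood for the group (adjusted p = 0.0345, with a range of 0.0345 to 0.867 over the 21 alternative fits). The antisense gene Gm26542 overlaps Ltc4s and reached 37.4% of its counts, and since the strand setting of the counting is not given, the Ltc4s values are uncertain.

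Receptor RNA held the single called gene. Cysltr1 (ENSMUSG00000052821, chromosome X, 106574346 to 106603679), the receptor with high affinity for leukotriene D4, was at 24.6, 19.5 and 20.5 CPM in the controls and at 18.6, 13.6 and 11.9 CPM in Sms_OE. All 3 Sms_OE libraries lay below all 3 controls, although Sms_OE replicate 1 was within 1 CPM of control replicate 2. Cysltr1 fell 1.47-fold, from 21.6 ± 2.7 to 14.7 ± 3.5 CPM (mean ± SD, n = 3), with a log2 fold change of -0.55 ± 0.17 (SE) and an adjusted p of 0.0389 by edgeR. It did not pass once control replicate 1 (adjusted p = 0.132), control replicate 2 (0.0635), control replicate 3 (0.0704), Sms_OE replicate 2 (0.0965) or Sms_OE replicate 3 (0.127) was left out, nor with library size alone as the scaling (0.0922). With a marker list as a covariate its adjusted p was 0.0511 for eosinophils, 0.142 for neutrophils and 0.971 for hepatocytes, and over 21 alternative fits it ran from 0.0095 to 0.971. The hepatocyte covariate moves with the group and left 0 of all genes called, so its result is not particular to Cysltr1. Without both haemoglobin-rich libraries the log2 fold change was -0.22 (adjusted p = 0.497). The part of these libraries' composition in the result was not tested. Ltb4r1 (ENSMUSG00000046908, chromosome 14, 55765962 to 55768494), the receptor BLT1, stayed between 57.8 and 70.9 CPM in the controls and between 58.6 and 74.8 CPM in Sms_OE. Its log2 fold change was 0.05 ± 0.12 (SE, adjusted p = 0.799, interval 0.86-fold to 1.24-fold).

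The genes whose log2 CPM over the 6 libraries was most like that of Cysltr1, among 10302 others with a mean of at least 5 CPM, were Zfp426 (Pearson r = 0.992), Kdelc1 (0.992) and Otud6b (0.992). With 6 libraries and so many genes, values this near 1 are a description and carry no test. Their own log2 fold changes were -0.39, -0.35 and -0.48, and none of these 3 genes passed the threshold.

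Alox15 (ENSMUSG00000018924, chromosome 11, 70344152 to 70352031) scattered widely within both groups. It gave 527, 904 and 1097 CPM in the controls and 485, 842 and 676 CPM in Sms_OE, so that the lowest and highest controls spanned all Sms_OE values but the lowest. The log2 fold change was -0.34 ± 0.29 (SE, adjusted p = 0.441, interval 0.50-fold to 1.26-fold). The scatter within groups ran along with that of several eosinophil markers. Ccr3, the eotaxin receptor of eosinophils, was at 205, 323 and 404 CPM in the controls and at 207, 351 and 302 CPM in Sms_OE. Control replicate 1 and Sms_OE replicate 1 were the 2 lowest libraries for Alox15, and also for Ccr3, for Siglecf (127 and 195 CPM), a lectin of eosinophils, and for Il5ra, the interleukin-5 receptor (14.2 and 18.0 CPM). Prg2, the major basic protein of eosinophil granules, was lowest in control replicate 1 and Sms_OE replicate 3. Alox15 divided by Ccr3 was 2.58, 2.80 and 2.72 in the controls and 2.34, 2.40 and 2.24 in Sms_OE, a narrower spread than that of either gene. Divided by Siglecf it spread more widely, at 4.15, 4.52 and 4.93 in the controls and 2.49, 3.16 and 2.95 in Sms_OE. With the mean log2 CPM of the eosinophil markers as a covariate, added after the values were seen, Alox15 was lower in Sms_OE (log2 -0.52, adjusted p = 0.00867). Over its 21 alternative fits the adjusted p ran from 0.00867 to 0.951, and this was the only one that passed. The eosinophil granule genes Epx and Prg3 were at most 2.23 and 3.37 CPM. Resident macrophages of the peritoneum also express Alox15, and some of their markers were lowest in the same libraries. F5, coagulation factor V, was at 178, 319 and 360 CPM in the controls and 318, 517 and 445 CPM in Sms_OE, and Prg4, lubricin, at 1.74, 10.2 and 8.98 CPM and 2.33, 2.55 and 4.08 CPM. Control replicate 1 and Sms_OE replicate 1 were again the 2 lowest for both, but for none of the other markers of these cells. Icam2 was lowest in Sms_OE replicates 2 and 3 (11.4 and 11.7 CPM). Gata6, the defining factor of these macrophages, was highest in Sms_OE replicate 1, at 1.08 CPM. Of the 8 markers 1 was called, Fcna, a ficolin that is also on the Kupffer cell list and was higher in Sms_OE.

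**Figure D3:**
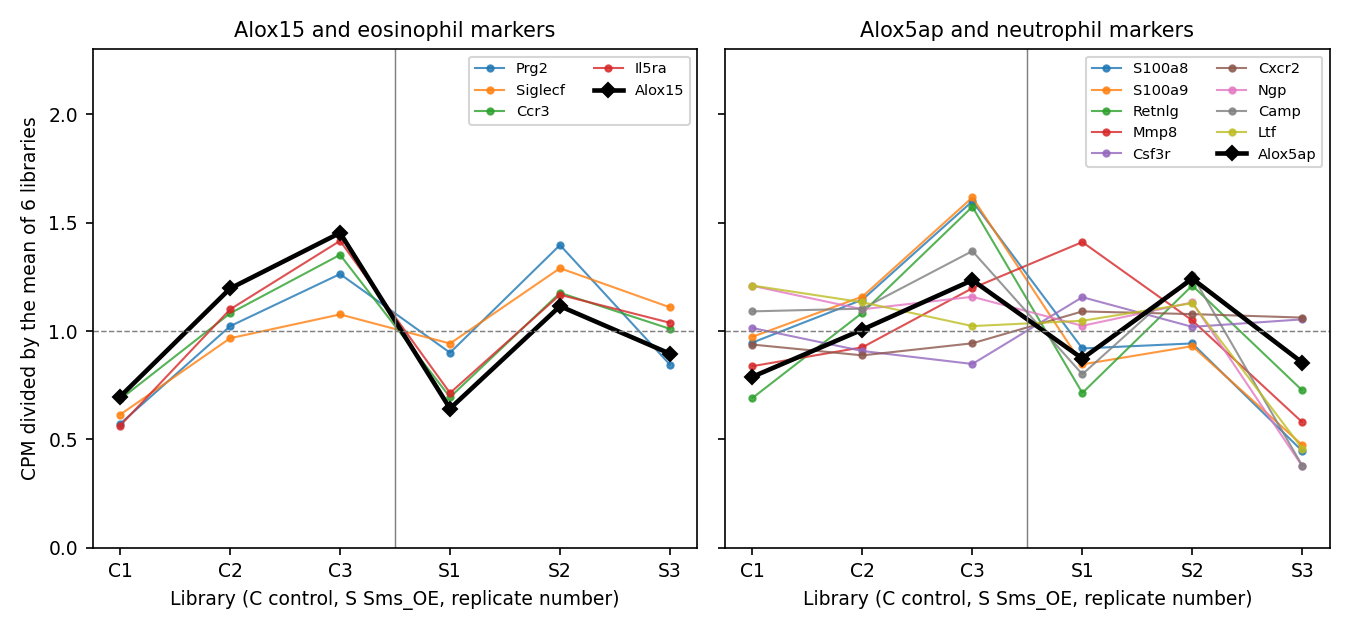
CPM in each library divided by the mean of the 6 libraries, for Alox15 with the eosinophil markers above 10 CPM (left) and for Alox5ap with the neutrophil markers above 10 CPM (right); C and S stand for control and Sms_OE. Alox15 and the eosinophil receptors Ccr3 and Il5ra are lowest in control replicate 1 and Sms_OE replicate 1, while the neutrophil markers move in different ways between libraries.

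The same libraries recurred among the other genes. Control replicate 1 and Sms_OE replicate 1 were also the 2 lowest for Alox5, Lta4h and Ltb4r1. For Ltc4s, Cysltr1 and Hpgds they were the highest of their groups. Alox5ap, which neutrophils also express, divided by the neutrophil gene Retnlg was 0.227 to 0.330 in the controls and 0.297 to 0.354 in Sms_OE. Retnlg is 1 of 10 neutrophil markers, which moved in different ways. Csf3r, for one, went down from control replicate 1 to 3 (1628, 1457 and 1361 CPM), where Retnlg and Alox5ap went up. With the neutrophil markers as a covariate Alox5ap gave a log2 fold change of 0.17 (adjusted p = 0.552) and Cysltr1 of -0.46. The part of eosinophils, peritoneal macrophages and neutrophils in the levels of these genes was not tested.

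The prostanoid synthases did not pass. Tbxas1 (ENSMUSG00000029925, chromosome 6, 38875404 to 39084585), which makes thromboxane A2, was the least variable, at 132, 145 and 142 CPM in the controls and 127, 140 and 124 CPM in Sms_OE. Its log2 fold change was -0.10 ± 0.085 (SE, adjusted p = 0.425), with an interval of 0.82-fold to 1.06-fold. Hipk2 overlaps Tbxas1 on the other strand and held up to 33.1% of its counts, so some reads could be misassigned. Platelets are another source of Tbxas1, and of the 8 platelet markers 1, Pf4, rose (8.75 ± 0.88 to 30.3 ± 13 CPM, SD, n = 3, adjusted p = 0.00453 by edgeR), a gene that macrophages also express. The median log2 fold change of the 8 was 0.41, and 3 of them had an unadjusted p under 0.05. Itga2b, an integrin of platelets, was at 14.0 to 20.8 CPM in the controls and 18.7 to 26.6 CPM in Sms_OE (adjusted p = 0.130), and Gp9 at 0.404 ± 0.32 and 1.34 ± 0.82 CPM (adjusted p = 0.0658). The part of platelets in the Tbxas1 level was not tested. Hpgds (ENSMUSG00000029919, chromosome 6, 65117293 to 65144908) gave 6.04, 5.41 and 3.75 CPM in the controls and 9.82, 3.87 and 6.20 CPM in Sms_OE. The groups overlapped, and the log2 fold change of 0.39 ± 0.32 (SE, adjusted p = 0.411) was -0.01 without Sms_OE replicate 1. It was 0.95 without both haemoglobin-rich libraries, where Sms_OE replicate 1 alone stood for the group. Mast cells and basophils are known to express Hpgds and Ltc4s. The mast cell proteases Cpa3, Mcpt4, Tpsb2 and Cma1 and the basophil proteases Mcpt8 and Prss34 were each at most 2.22 CPM in every library. Other markers on these lists were present: Kit was at 6.42 to 9.48 CPM and Gata2 at 5.39 to 8.51 CPM over the 6 libraries, and neither was called. Cd200r3, a receptor of basophils and mast cells, fell from 4.85 ± 0.66 to 2.59 ± 0.93 CPM (SD, n = 3, adjusted p = 0.0406 by edgeR), whereas the fold changes of Ltc4s and Hpgds were positive and not called. The part of these cells in the values of Ltc4s and Hpgds was not tested. The mast cell list summed to 826 to 848 CPM in the controls and 1151 to 1356 CPM in Sms_OE, nearly all of it Hdc, histidine decarboxylase, which neutrophils express as well.

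Ratios within a library do not move with the scaling of libraries. For 4 pairs of genes, log2 CPM (prior count 2) were subtracted and the differences compared by a two-sided exact permutation test. Lta4h minus Ltc4s, the balance of the B4 and C4 branches, averaged 4.64 ± 0.27 (SD, n = 3) for the controls against 4.10 ± 0.79 for Sms_OE (exact permutation p = 0.4). Sms_OE replicate 1, at 3.18, was the lowest, and without it the difference was -0.08 instead of -0.54. Ltb4r1 minus Cysltr1, the 2 receptors, was 1.62 ± 0.34 and 2.24 ± 0.51 (exact permutation p = 0.3). Alox5 minus Alox5ap was -1.13 ± 0.11 and -1.05 ± 0.23 (exact permutation p = 0.6), and Tbxas1 minus Hpgds was 4.80 ± 0.40 and 4.39 ± 0.74 (exact permutation p = 0.4). Adjusted over the 4 pairs, p was 0.533 for 3 of them and 0.6 for Alox5 minus Alox5ap. The smallest p that 3 libraries against 3 can give is 0.1, so no ratio could have passed 0.05.

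Around these 9 genes, 78 others of eicosanoid metabolism were taken from 5 lists, of which 59 were tested. Of the 59, 9 rose and 8 fell, or 28.8% against 26.9% of all genes, with a median log2 fold change of -0.01. Without both haemoglobin-rich libraries, which leaves 1 Sms_OE library, fewer were called, here and over all genes. With the hepatocyte markers as a covariate 0 of the 59 passed (4 at an unadjusted p under 0.05). That covariate moves with the group and left 0 of all genes called, so the 0 is not particular to these genes. With the neutrophil markers as a covariate 12 of the 59 and 3342 of all genes passed. Ltb4r2, Ptgs2, Ptges2, Ptgdr2 and Ptgr2 lost their calls in that fit. In the list of phospholipid release and arachidonate handling 3 of 17 tested genes fell and none rose by edgeR (5 at an unadjusted p under 0.05). Pla2g16, a phospholipase of lipid droplets and peroxisomes, fell from 52.3 ± 7.9 to 33.7 ± 2.3 CPM, Daglb, a diacylglycerol lipase, from 54.6 ± 9.99 to 33.9 ± 5.0 CPM, and Pla2g2d, a secreted phospholipase, from 2.23 ± 0.80 to 0.721 ± 0.13 CPM (SD, n = 3). Their adjusted p were 0.0042, 0.00824 and 0.00837 by edgeR. The members of highest CPM in that list, Pla2g7, which breaks down platelet-activating factor, and Lpcat2, which makes it, gave log2 fold changes of 0.25 ± 0.17 and 0.10 ± 0.10 and did not pass. Pla2g4a, the cytosolic phospholipase that frees arachidonic acid, named after its value was seen, went from 65.6 ± 5.4 to 55.2 ± 3.3 CPM with groups that did not overlap (log2 -0.25 ± 0.093, adjusted p = 0.0744).

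Among 12 tested genes of the leukotriene pathway beyond the 9, 2 rose and none fell by edgeR (16.7%, against 26.9% of all genes). Abcc1, the transporter that exports leukotriene C4 from cells, rose 1.65-fold, at 76.4, 72.5 and 71.0 CPM in the controls and 124, 133 and 105 CPM in Sms_OE (log2 0.72 ± 0.099, adjusted p = 0.00106). The groups were clearly apart, and the call held without any single library and without both haemoglobin-rich ones. Ltb4r2, the receptor BLT2 of low affinity for leukotriene B4, rose from 1.99, 4.73 and 2.62 CPM to 6.11, 8.37 and 11.1 CPM (2.73-fold, log2 1.45 ± 0.33, adjusted p = 0.009997). With the neutrophil markers as a covariate its adjusted p was 0.0521 by edgeR. Without both haemoglobin-rich libraries, which leaves 1 Sms_OE library, its log2 fold change was 0.97. Ltb4r2 (chromosome 14, 55761428 to 55765138) ends 823 bases before Ltb4r1 on the same strand, so the 2 receptors of leukotriene B4 lie side by side, and reads between them could be assigned to either. Ltb4r2 was called and Ltb4r1 was not, but the difference between their changes was not tested. The members of highest CPM, Cyp4f18, which inactivates leukotriene B4, and Cotl1, which binds 5-lipoxygenase, gave 0.07 ± 0.19 and -0.13 ± 0.11 and did not pass.

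In the list of other lipoxygenases and receptors of pro-resolving lipid mediators, 2 of 7 tested genes rose and none fell by edgeR. That is 28.6%, near the 26.9% of all genes. These were the formyl peptide receptors Fpr1, from 43.5 ± 4.3 to 96.4 ± 28 CPM (adjusted p = 0.00412), and Fpr2, the receptor of lipoxin A4 and of peptides, from 97.9 ± 4.0 to 145 ± 18 CPM (SD, n = 3, adjusted p = 0.00314 by edgeR). Neutrophils carry both receptors. None of the 10 neutrophil markers passed, and their median log2 fold change was -0.40. The calprotectin genes S100a8 (911 ± 248 to 570 ± 207 CPM) and S100a9 (1655 ± 438 to 993 ± 321 CPM) had groups that did not overlap, with the lower values in Sms_OE. The receptors Csf3r (1482 ± 135 to 1728 ± 114 CPM) and Cxcr2 (382 ± 13 to 446 ± 5.9 CPM) did not overlap either, with the higher values there. With the neutrophil markers as a covariate Fpr1 and Fpr2 both kept their call by edgeR. The part of neutrophils in the 2 rises was not tested beyond that fit, whose markers moved in different ways.

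**Figure D4:**
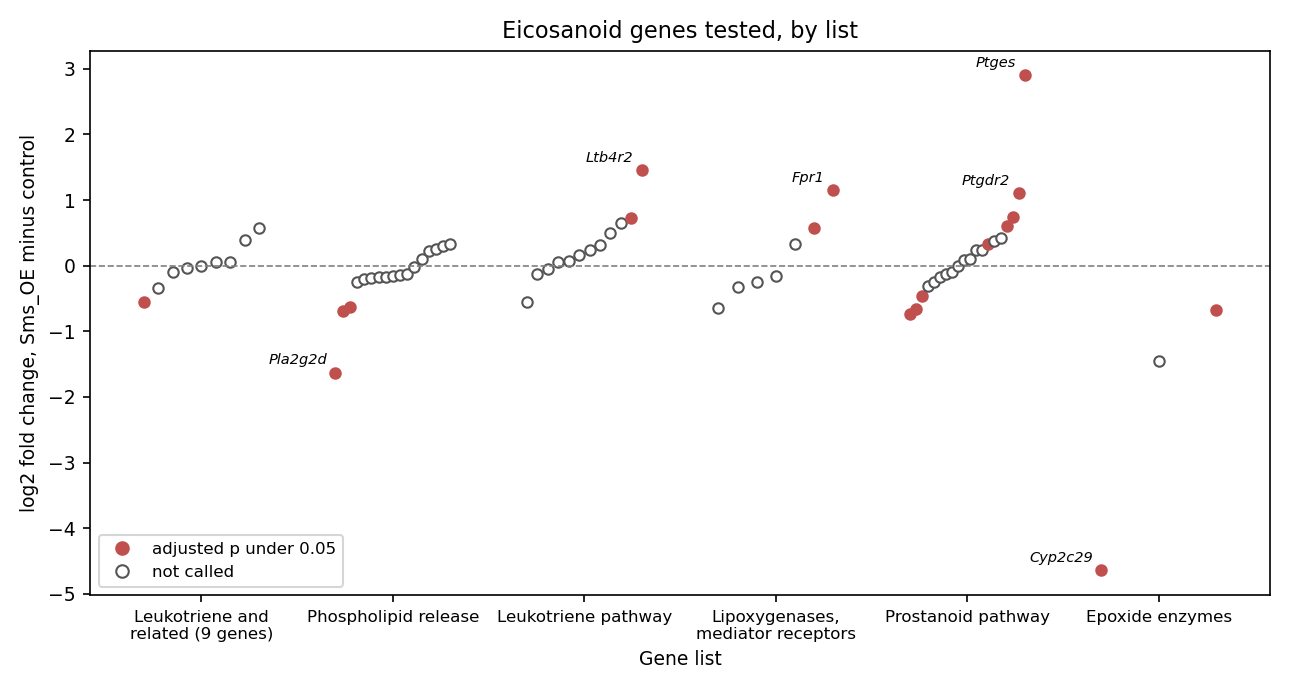
Log2 fold change (Sms_OE minus control) of each tested gene, for the 9 genes and for the 5 lists around them, with filled points for an adjusted p under 0.05 by edgeR. Of the 9 genes 1 is filled, below 0 (11.1%), and the prostanoid list holds 8 filled points of 20, 5 above and 3 below 0 (40.0%). Over all tested genes 26.9% passed.

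Of 20 tested prostanoid genes beyond Tbxas1 and Hpgds, 5 rose and 3 fell (40.0%, against 26.9% of all genes). Ptges, the inducible synthase of prostaglandin E2, rose to 43.3 ± 18 from 5.80 ± 1.1 CPM (SD, n = 3, adjusted p = 0.00055), its receptors Ptger4 and Ptger2 rose 1.52-fold and 1.67-fold, and Ptgs2, cyclooxygenase 2, 1.25-fold (adjusted p = 0.00743, 0.0169 and 0.0377, all by edgeR). Ptger2 lost its call without control replicate 2 or 3 or Sms_OE replicate 1 or 2 (adjusted p from 0.0544 to 0.0649), and Ptgs2 without any control or Sms_OE replicate 2 or 3 (from 0.0849 to 0.144). The other genes of prostaglandin E2 did not rise. The synthase Ptges2 fell from 11.4 ± 1.2 to 7.23 ± 1.2 CPM, and Ptges3, also a prostaglandin E synthase, gave a log2 fold change of -0.30 ± 0.12 (adjusted p = 0.0983) with non-overlapping groups. The receptors Ptger1 (-0.17 ± 0.23) and Ptger3 (0.11 ± 1.0) were not called. Ptges3, Ptger1 and Ptger3 are named after their values were seen. Ptgs1, cyclooxygenase 1, gave 0.23 ± 0.11 and did not pass. The other falls were Akr1b3, an aldose reductase that can make prostaglandin F2 alpha (87.6 ± 7.6 to 52.5 ± 0.75 CPM, adjusted p = 0.000575), and Ptgr2, which inactivates prostaglandins (26.1 ± 1.8 to 18.9 ± 2.1 CPM). Ptges2 no longer passed when control replicate 1 (adjusted p = 0.0704) or Sms_OE replicate 3 (0.0675) was left out, nor did Ptgr2 without control replicate 3 (0.0617) or Sms_OE replicate 3 (0.0628).

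Ptgdr2, the prostaglandin D2 receptor of eosinophils and T helper 2 cells, named after its value was seen, completes the 5 rises. It was at 1.77 to 2.90 CPM in the controls and 3.32, 3.63 and 7.15 CPM in Sms_OE (log2 1.11 ± 0.34, adjusted p = 0.0359 by edgeR). Leaving out control replicate 1 (adjusted p = 0.114), control replicate 2 (0.128) or Sms_OE replicate 3 (0.161) ended the call. Hpgds, which makes its ligand, was not called, as given above. In the short list of epoxide and omega-hydroxylase enzymes 2 of 3 tested genes fell, where 26.9% of all genes were called. These were Ephx1, microsomal epoxide hydrolase, from 29.2 ± 3.6 to 18.3 ± 2.4 CPM, and Cyp2c29, a hepatic cytochrome, from 1.20 ± 0.62 to 0.0468 ± 0.081 CPM (SD, n = 3, adjusted p = 0.00607 and 0.00812 by edgeR). Hepatocyte markers were lower in the same libraries, 9 of 10, and their part in these falls was not tested. Ephx2, soluble epoxide hydrolase, named after its value was seen, was at most 1.15 CPM and was not called (adjusted p = 0.292).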

How the data were processed

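Gene values are estimated counts as deposited by the authors, whole numbers without normalization. HISAT2 2.2.1, StringTie 2.1.6, DESeq2, FastQC 0.11.9 and cutadapt 1.9 are named in the submitters' processing notes. Build, annotation and strand setting: not given in the sources used here. Per the labels' protocols, libraries were selected on oligo(dT) and marked strand with dUTP. Symbols, coordinates and lengths came from GENCODE M21 (GRCm38) by Ensembl identifier, for 55141 of 55401 rows, and Prxl2b, Plaat3 and Cyp2c44 were matched by synonym.

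The test was edgeR 4.0.16 in R 4.3.3 over all 18277 genes kept by filterByExpr: TMM factors, robust glmQLFit and glmQLFTest, Benjamini-Hochberg adjustment and a threshold of 0.05. The F statistic gave the standard errors, and these the 95% intervals. In counts simulated from this comparison (17700 genes tested), log2 changes of 0.5, 1 and 2 were given to 77, 59 and 61 genes. They were recovered for 16.9%, 52.5% and 75.4% of these genes, so small changes were often missed there. The simulation called 94 genes, against 4908 in the data. Fewer changed genes make the adjusted threshold stricter, so these shares do not measure how many changes were missed here. No 2 libraries of a group had more than 17.3% identical counts.

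The 9 genes and the lists were chosen with earlier results of these data known. Named from each list were up to 6 genes past the threshold by smallest p and the 2 of highest CPM; other names are stated as such. Dpep2, with 2 rows in the table, was left out. Alternatives were other scalings (DESeq2 1.42.0 size factors among them), filters, tests (DESeq2, limma 3.58.1 voom), covariates, length and GC offsets, the replicate block and leaving out libraries. The haemoglobin-rich pair and the eosinophil and neutrophil covariates were added after seeing the data.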

Additional observations from a re-analysis of the deposited data

How the results depend on the processing

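Besides the fit in the text, 21 others were run for each of the 9 genes, and the counts were also taken at 2 other thresholds. Cysltr1 passed in 11 of the 21, Ltc4s and Alox15 in 1 each, and the other 6 genes in none. The number of the 9 genes called was 0 with library size alone (2 at an unadjusted p under 0.05), the hepatocyte covariate (0), the neutrophil covariate (1) and a threshold of 0.01, and 0 to 1 on leaving out single libraries. With the hepatocyte markers as a covariate, which move with the group, 0 of the 59 other eicosanoid genes (4 at an unadjusted p under 0.05) and 0 of all genes (1162) passed by edgeR. Without both haemoglobin-rich libraries 6 of the other eicosanoid genes and 1384 of all genes passed, against 17 and 4908. At a threshold of 0.01 2296 of all genes passed, and on leaving out single libraries 3050 to 4488. The causes of these shifts were not tested.

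Signs reversed only where a value was not called, except for Cysltr1 with the hepatocyte covariate (0.20). That covariate also gave 1.36 for Alox5ap, 0.64 for Alox15 and 0.21 for Tbxas1. Alox5 gave -0.0597 with the eosinophil covariate, -0.23 without the haemoglobin-rich pair and -0.11 to 0.16 without single libraries. Ltb4r1 gave -0.0207, -0.18 and -0.0468 to 0.15 in the same fits. Alox5ap gave 0.0075 with upper-quartile factors, 0.036 with library size alone, 0.00052 with the CPM filter, 0.17 with the neutrophil covariate, 0.29 with length and GC offsets and -0.23 to 0.13 without single libraries. Lta4h gave 0.0101 with DESeq2 size factors and with the DESeq2 Wald test, 0.0259 with upper-quartile factors, 0.0493 with library size alone, 0.0187 with the CPM filter, 0.10 with length and GC offsets and -0.11 to 0.12 without single libraries. Hpgds gave -0.0143 to 0.65 and the ratio Alox5 minus Alox5ap -0.0436 to 0.16 without single libraries.

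Whether the replicate numbers pair the samples was not settled. Deviations of same-numbered libraries correlated at 0.065, 0.020 and -0.0075 across genes. Control replicates 1 and 2 correlated best with the same-numbered Sms_OE library, and control replicate 3 with Sms_OE replicate 2 (0.044). With the replicate block 1 of the 9 genes, 19 of the 59 others and 4532 of all genes passed, and Cysltr1 gave -0.57 (adjusted p = 0.0167). The block made the standard errors of all 9 genes smaller, as for Alox5 (0.085 against 0.16), which did not pass. Ltc4s and Hpgds rest on 231 to 629 and 180 to 518 counts per library, and their intervals reach 2.25-fold and 2.13-fold.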
